A study of Homo sapiens with 4 samples.

Results

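Genes of the JAK-STAT pathway were followed in K562 and THP-1 leukemia cells treated with periplocin. The 10 members were the kinases JAK1 and JAK2, the transcription factors STAT3, STAT5A, STAT5B and STAT6, the feedback inhibitors CISH, SOCS2 and SOCS3, and the kinase PIM1. They were taken from the deposited gene table by symbol, each matched 1 row, and the table holds 20348 genes in all. K562 is a human line from chronic myeloid leukemia that carries the BCR-ABL1 fusion kinase, and THP-1 is a human line from acute monocytic leukemia. According to the methods, the treated cells of either line received 100 nM periplocin, a cardiac glycoside of Cortex periplocae, for 72 h and the controls DMSO, and poly-A RNA was sequenced. The control titles in the labels say blank, whereas the library names say DMSO. Each of the 4 conditions is 1 library, so no difference has a replicate check.

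Cytokine receptors without kinase activity of their own use JAK kinases to phosphorylate STAT proteins, which then move to the nucleus and bind DNA. STAT5A and STAT5B are close paralogs that act below the erythropoietin, thrombopoietin and interleukin-3 family receptors, and in BCR-ABL1-positive cells they are kept phosphorylated by the fusion kinase. STAT3 is the main factor below interleukin-6 family receptors and STAT6 below the interleukin-4 receptor. CISH, SOCS2 and SOCS3 are SH2-domain proteins induced by STATs that dampen the receptors and kinases that induced them, and PIM1 is a serine/threonine kinase gene activated by STAT5. Transcript levels say nothing of phosphorylation, which is how STAT activity is set.

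STAT dimers recognise a palindrome with a spacer of 3 bases, TTCNNNGAA. RefSeq promoter windows on GRCh38.p14, which run from 250 bases before to 50 bases after a gene start, were matched for 9 of the 10 members, all but SOCS2, with 17 windows in all. Only the CISH window held the motif among these 17, and it held 4 copies that do not overlap each other. Among all 35116 windows of this length, 7.66% held at least 1 copy and 7 windows, or 0.0199%, held at least 4. The palindrome reads alike on both strands. The windows follow RefSeq starts. For SOCS3, STAT6 and STAT5B they do not reach the bases just upstream of the GENCODE gene start, so those bases were not searched. The sequence is shown because, among the windows of the members, only that of CISH carries these letters. It is the part of the CISH window that lies upstream of both the RefSeq start and the GENCODE gene start, chr3:50611832-50612024 on the minus strand, with the 4 copies in capitals.
CISH: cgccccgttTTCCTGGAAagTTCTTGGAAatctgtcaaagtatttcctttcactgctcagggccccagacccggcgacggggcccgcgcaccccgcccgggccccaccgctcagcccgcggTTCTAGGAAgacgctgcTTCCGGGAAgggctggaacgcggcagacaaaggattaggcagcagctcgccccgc
The copies form a distal pair, centred 237 and 226 bases upstream of the RefSeq start, and a proximal pair, centred 125 and 108 bases upstream. The form with 4 bases between TTC and GAA, which STAT6 also recognises, was found in 1 of the 17 windows, as TTCCTCTGAA at chr17:42287210-42287219 upstream of STAT5A on the plus strand, and in 6.44% of all windows. A match is a description of letters, and binding was not measured here.

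The members are spread over 6 chromosomes of GRCh38, by the gene models of GENCODE release 29. STAT5B (chr17:42199168-42276707, minus strand), STAT5A (chr17:42287547-42311943, plus strand) and STAT3 (chr17:42313324-42388568, minus strand) lie side by side within 189401 bp. The starts of STAT5B and STAT5A face each other across 10839 bp, and STAT5A and STAT3 meet at their ends with 1380 bp between them. SOCS3 (chr17:78356778-78360077, minus strand) is farther along the same chromosome. JAK1 is at chr1:64833229-64966504 on the minus strand, CISH at chr3:50606490-50611831 on the minus strand, PIM1 at chr6:37170203-37175426 on the plus strand and JAK2 at chr9:4984390-5128183 on the plus strand. STAT6 (chr12:57095408-57132139, minus strand) and SOCS2 (chr12:93569814-93583487, plus strand) are on chromosome 12.

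The libraries held between 16381158 and 20622681 expected counts. In the lines' defining markers, the 9 erythroid genes listed for K562 summed to 2173 CPM in K562 DMSO and to 10.8 CPM in THP-1 DMSO, where CPM is the count scaled to a library total of 1000000. The 11 myeloid genes listed for THP-1 summed to 2449 CPM in THP-1 DMSO and to 102 CPM in K562 DMSO, although MEIS1 among them had 6 counts in THP-1 DMSO and 116 in K562 DMSO. Markers of other blood cells, 6 genes, summed to 153 CPM in THP-1 DMSO, where NCAM1 alone had 152 CPM. In K562 DMSO they summed to 8.73 CPM, where CD3D alone had 7.39 CPM. Mitochondrially encoded genes took 5.62% of counts in K562 DMSO and 2.07% in K562 periplocin, and 5.24% and 3.92% in THP-1. Log2 ratios were scaled by TMM within each pair of libraries, which moved them by -0.01 in K562, 0.01 in THP-1 and 0.12 between the DMSO libraries of the lines relative to plain CPM. Intervals in brackets are 95% exact binomial intervals for counting error only, and they compare libraries, not conditions. A gene was called when the ratio was at least 2-fold and its interval lay on 1 side of no change, provided that its levels in the pair averaged 1 CPM or more, a filter that all 10 members passed in each comparison. In bulk RNA, fewer expressing cells and less RNA per cell cannot be told apart.

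In the DMSO libraries, 7 of the 10 members were more abundant in K562 than in THP-1 by over 2-fold. PIM1 had 874 CPM in K562 DMSO and 9.94 CPM in THP-1 DMSO, an 80.6-fold difference (log2 ratio -6.33, -6.54 to -6.14). SOCS2 was 44.1-fold lower in THP-1 DMSO, with 7.71 against 371 CPM. STAT5A was 36.4-fold lower, with 19.8 against 784 CPM, and CISH 16.5-fold lower, with 10.2 against 184 CPM. These 4 genes, a STAT5 factor and 3 genes that STAT5 induces, had the widest gaps. SOCS3 was 4.95-fold, STAT5B 4.10-fold and STAT3 2.29-fold lower in THP-1 DMSO. STAT6 was the only member called higher in THP-1, at 207 against 113 CPM, a log2 ratio of 1.00 (0.92 to 1.08), and with total counts in place of TMM it was no longer past 2-fold. JAK1 and JAK2 differed by less, with log2 ratios of -0.15 and 0.73. In all, 7 of 10 members were called lower in THP-1 DMSO, beside 21.1% of all genes tested, and 1 was called higher, beside 22.7%. With an assumed dispersion of 0.16, 6 were still called lower, without STAT3, beside 13.4% of all genes tested. None was called higher at that setting, beside 15.8%. The lines differ in origin and each is 1 library, so line and library cannot be told apart.

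Per length, the order of the members also differed between the lines. On the TPM scale, with the longest coding transcript as length, PIM1 led in K562 DMSO with 876 TPM, followed by STAT5A (485), SOCS2 (264), CISH (225), STAT5B (175), STAT3 (155), JAK1 (110), STAT6 (74.3), JAK2 (39.8) and SOCS3 (16.1), and no neighbours in that order had overlapping counting intervals. In THP-1 DMSO, STAT6 led with 140 TPM, followed by JAK1 (93.7), STAT3 (63.6), JAK2 (62.3), STAT5B (40.1), CISH (12.9), STAT5A (12.5), PIM1 (10.2), SOCS2 (5.62) and SOCS3 (3.04). Neighbours there overlapped for STAT3 and JAK2, CISH and STAT5A, and STAT5A and PIM1. The intervals do not cover the choice of transcript length or the division of reads between STAT5A and STAT5B. The order of close neighbours may depend on these in either line. After periplocin, STAT5A moved in K562 from the 2nd to the 5th place with 151 TPM and CISH from the 4th to the 2nd with 342 TPM, while STAT6, JAK1 and STAT3 kept the top places in THP-1 with 187, 140 and 126 TPM.

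**Figure D1:**
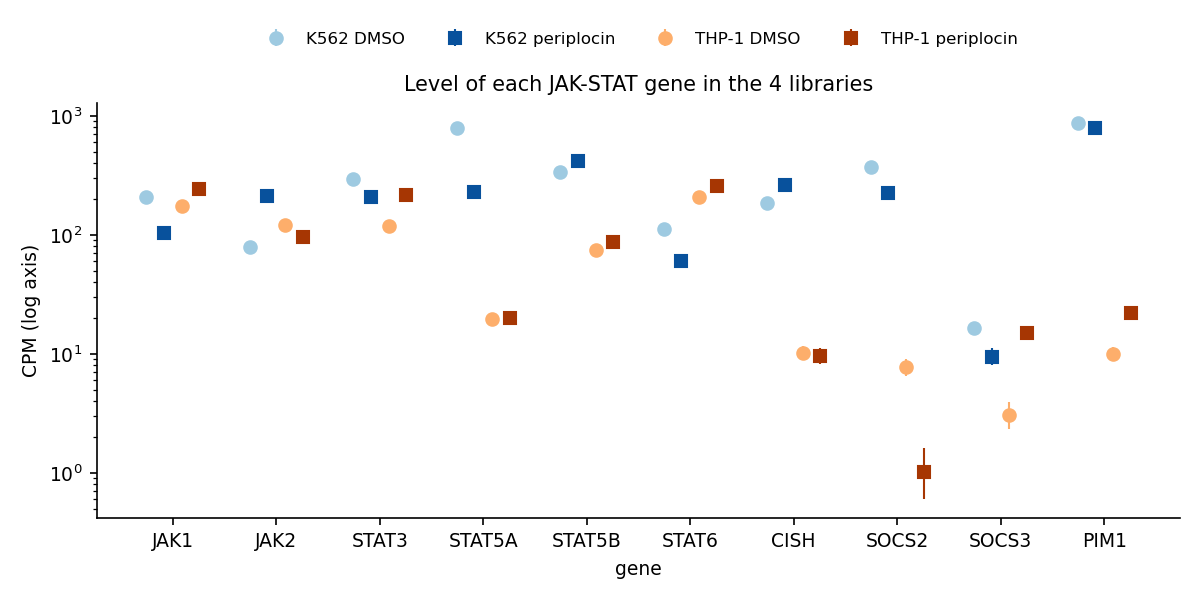
Level of each member in the 4 libraries, in CPM on a log axis, with 1 point per library and 95% Poisson counting intervals, which are mostly smaller than the symbols. PIM1, SOCS2, STAT5A and CISH in both K562 libraries lie above both THP-1 libraries, with THP-1 levels of at most 22.1 CPM.

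The JAK genes moved in opposite directions in K562. JAK2, the kinase of the erythropoietin and thrombopoietin receptors, had 79.2 CPM in K562 DMSO and 212 CPM in K562 periplocin, and 121 and 96.3 CPM in THP-1 DMSO and periplocin. It rose 2.66-fold in K562 (log2 ratio 1.41, 1.32 to 1.50), higher than 95.5% of genes tested, whereas its log2 ratio in THP-1 was -0.32 (-0.41 to -0.23). JAK1, which serves interferon, interleukin-6 and interleukin-2 family receptors, had 210 and 103 CPM in K562 and 174 and 241 CPM in THP-1. JAK1 fell 2.05-fold in K562 (log2 ratio -1.03, -1.12 to -0.95), just past the limit of the call, and its log2 ratio in THP-1 was 0.48 (0.42 to 0.55). Of the 4 libraries, K562 periplocin had the highest JAK2 and the lowest JAK1 level. JAK2 overlaps INSL6 by 4304 bp and JAK1 overlaps RAVER2 by 4 bp, each on the other strand. Added together, JAK1 and JAK2 took 289 CPM in K562 DMSO and 315 CPM in K562 periplocin, while the share of JAK2 in their counts went from 27.4% (26.2 to 28.7) to 67.3% (66.0 to 68.5). In THP-1 that share went from 41.1% (39.8 to 42.3) to 28.6% (27.4 to 29.7).

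Among the STAT genes, STAT5A fell in K562 and its paralog STAT5B did not. STAT5A had 784 CPM in K562 DMSO and 229 CPM in K562 periplocin, and 19.8 and 19.9 CPM in THP-1 DMSO and periplocin. This was a 3.44-fold fall in K562 (log2 ratio -1.78, -1.84 to -1.73), lower than all but 3.70% of genes tested, and in THP-1 the ratio was within counting error (0.02, -0.19 to 0.23). STAT5B had 335 and 414 CPM in K562 (log2 ratio 0.30, 0.24 to 0.35) and 75.2 and 86.4 CPM in THP-1 (0.21, 0.11 to 0.31). STAT5A therefore went from 70.1% of the counts of the STAT5 genes in K562 DMSO (69.4 to 70.7) to 35.6% in K562 periplocin (34.7 to 36.6), against 20.8% and 18.7% in THP-1, where the intervals overlapped. As the levels of the paralogs were counted apart, the division of reads between them matters. Of the stretches of 75 bases in their longest coding transcripts, 421 are found in both genes, or 9.96% of STAT5A and 8.37% of STAT5B, while no other member shared any with another gene. Their expected counts were fractional in every library, and their sum was whole in each to the 2 decimals deposited, as happens when reads that match both genes are divided between them. The sum does not depend on that division, and it went from 18342 to 10661 counts in K562 (log2 ratio -0.81, -0.84 to -0.77) and from 1959 to 1883 in THP-1 (0.17, 0.08 to 0.27).

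STAT3 and STAT6 went in opposite directions in the 2 lines, below the 2-fold limit in each. STAT3 had 294 and 210 CPM in K562 without and with the drug and 118 and 217 CPM in THP-1, with log2 ratios of -0.50 (-0.56 to -0.43) in K562 and 0.89 (0.81 to 0.96) in THP-1. The treated lines had similar STAT3 levels, while the DMSO lines were 2.29-fold apart. STAT6 had 113 and 60.1 CPM in K562 and 207 and 257 CPM in THP-1, with log2 ratios of -0.92 (-1.03 to -0.80) and 0.32 (0.26 to 0.38). The STAT6 interval in K562 reaches past the 2-fold limit, and it overlaps that of JAK1, so STAT6 lies just outside the call and JAK1 just inside it. The gene span of STAT6 overlaps that of NAB2 by 69 bp and that of LRP1 by 3647 bp on the other strand, and the sources used here do not state whether counting used strand.

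The feedback inhibitors did not move as a group. SOCS2, which restrains growth hormone and other STAT5-coupled receptors, had 371 and 226 CPM in K562 and 7.71 and 1.02 CPM in THP-1. In THP-1 it fell 7.37-fold, from 159 to 18 counts (log2 ratio -2.88, -3.70 to -2.21), near the bottom of all genes tested, and in K562 the log2 ratio was -0.72 (-0.78 to -0.66). SOCS2 was lower with periplocin in both lines, but the THP-1 level started near the low end of the members, and with a minimum of 5 CPM it was not tested there. SOCS3, which binds JAKs and the interleukin-6 receptor chain gp130, had 16.5 and 9.48 CPM in K562 and 3.06 and 14.9 CPM in THP-1. It rose 4.90-fold in THP-1, from 63 to 265 counts (log2 ratio 2.29, 1.90 to 2.72), higher than 98.5% of genes tested, and in K562 its log2 ratio was -0.81 (-1.11 to -0.53). The share of SOCS3 in the SOCS2 and SOCS3 counts thus went from 28.4% (22.6 to 34.8) to 93.6% (90.1 to 96.2) in THP-1 and was 4.27% and 4.02% in K562. CISH, whose promoter sequence is printed above, had 184 and 261 CPM in K562 (log2 ratio 0.50, 0.43 to 0.56) and 10.2 and 9.59 CPM in THP-1 (-0.08, -0.38 to 0.22). CISH was not called in either line, and in K562 its level was higher in the library where STAT5A was lower. CISH overlaps MAPKAPK3 by 312 bp on the other strand.

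PIM1 stayed at a high level in K562, with 874 CPM in DMSO and 785 in periplocin, a log2 ratio of -0.17 (-0.20 to -0.13). In THP-1 it rose 2.24-fold, from 205 to 392 counts, or from 9.94 to 22.1 CPM (log2 ratio 1.16, 0.92 to 1.42). The treated THP-1 level remained far below both K562 libraries.

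**Figure D2:**
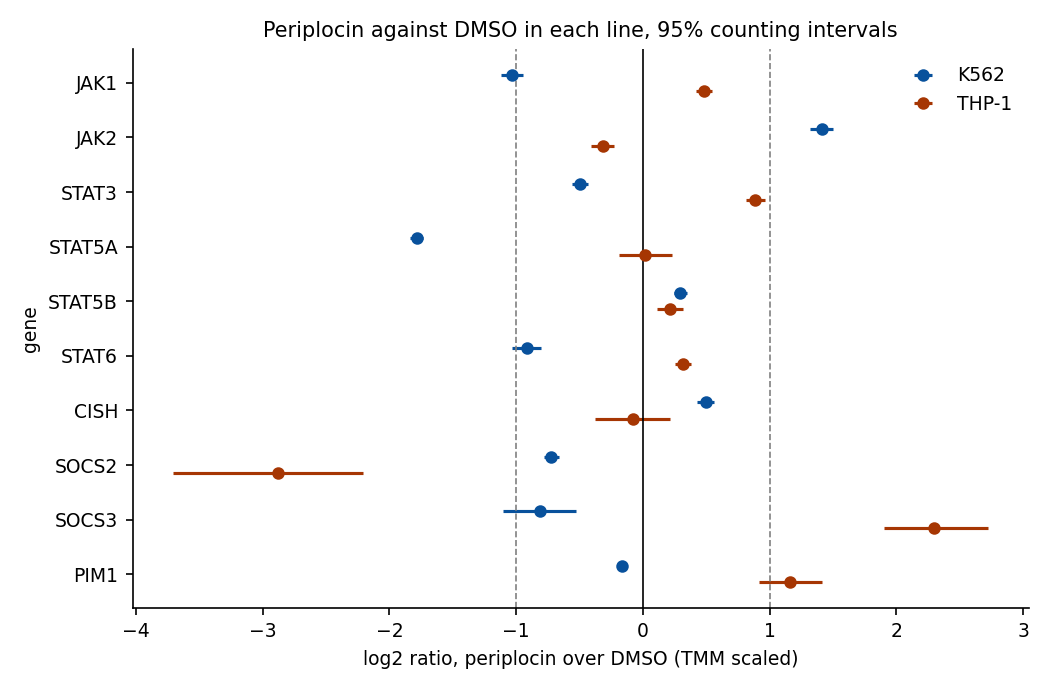
Log2 ratio of periplocin over DMSO for each member in K562 and in THP-1, with 95% counting intervals from 1 library per condition and dashed lines at a 2-fold change. STAT5A (-1.78) and JAK1 (-1.03) lie past the lower line and JAK2 (1.41) past the upper line in K562, and SOCS2 (-2.88), PIM1 (1.16) and SOCS3 (2.29) lie past a line in THP-1.

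**Figure D3:**
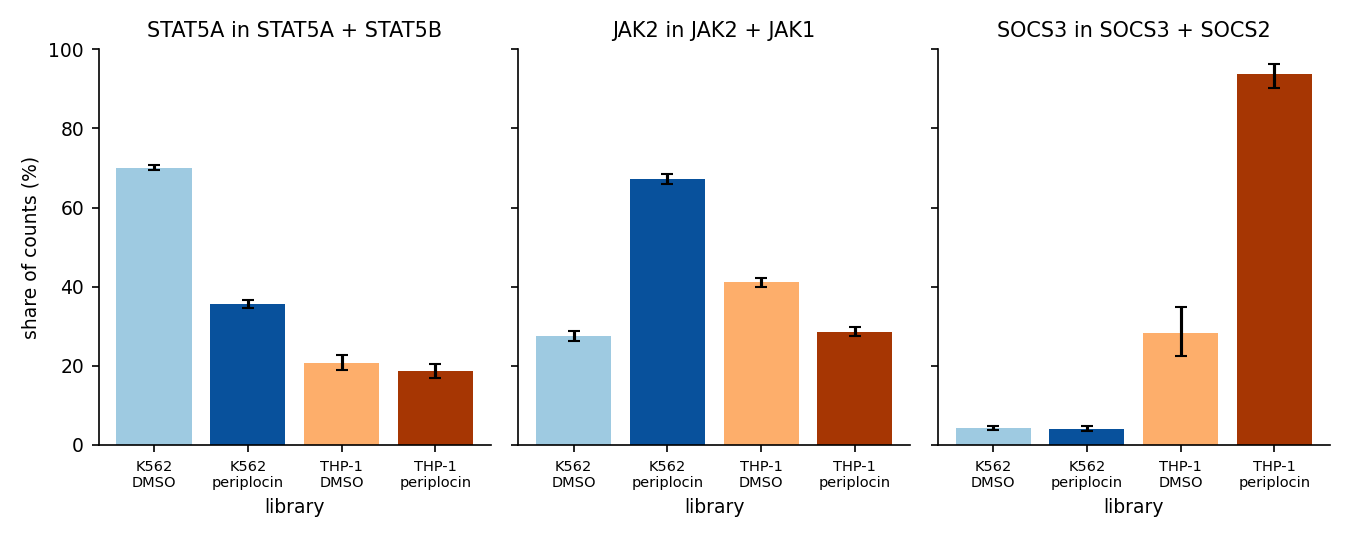
Share of the counts of STAT5A in STAT5A plus STAT5B, of JAK2 in JAK1 plus JAK2 and of SOCS3 in SOCS2 plus SOCS3, in percent for each library, with 95% exact binomial intervals. STAT5A goes from 70.1% to 35.6% and JAK2 from 27.4% to 67.3% in K562, and SOCS3 from 28.4% to 93.6% in THP-1.

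Counted over the list, 1 member rose and 2 fell past 2-fold in K562, beside 8.82% of 11862 genes called higher and 11.5% called lower, and 2 rose and 1 fell in THP-1, beside 8.01% and 10.4% of 12341 genes. These counts are near those shares and are no result about the list. The median log2 ratio of the members was -0.61 in K562 and 0.26 in THP-1, beside -0.01 and -0.02 over all genes tested. With an assumed dispersion of 0.04 between replicates in place of counting error alone, each call of a member in either line remained. With 0.16, only STAT5A in K562 and SOCS2 and SOCS3 in THP-1 did. At 0.16, 3.09% of genes tested were called higher and 4.35% lower in K562, and 3.27% and 3.23% in THP-1.

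Most members responded differently in the lines. The THP-1 log2 ratio minus the K562 log2 ratio, with an interval from the 4 counts, was called past a 2-fold difference for 8 of 10 members. SOCS3 (3.11, 2.62 to 3.59), STAT5A (1.80, 1.59 to 2.01), JAK1 (1.52, 1.41 to 1.62), STAT3 (1.38, 1.29 to 1.48), PIM1 (1.33, 1.08 to 1.57) and STAT6 (1.24, 1.11 to 1.36) had the higher ratio in THP-1, beside 11.0% of 10779 genes called in that direction. SOCS2 (-2.16, -2.86 to -1.46) and JAK2 (-1.73, -1.85 to -1.60) had the lower ratio in THP-1, beside 9.51%. With an assumed dispersion of 0.16, SOCS3 was the only member still called, beside 2.17% of genes called higher in THP-1 and 1.18% lower. CISH had a difference of -0.58 (-0.88 to -0.28), and for STAT5B it was within counting error (-0.08, -0.20 to 0.03). For 6 of 10 members the ratios lay on opposite sides of no change in the lines beyond counting error, as they did for 20.2% of genes. These differences come from 1 library per condition, and the members were chosen with earlier results of these data known.

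A treatment term common to both lines was also fitted over all 4 libraries, beside a term for the line, and its error is what the lines' responses do not share, with 1 residual degree of freedom. In edgeR's quasi-likelihood test with Benjamini-Hochberg adjustment, 0% of 13584 genes were called at an adjusted p of 0.05, while 1535 genes had an unadjusted p under 0.05 and DESeq2 with the same terms called 131. The member with the lowest p was SOCS2, with a log2 change of -1.63 and lower counts in both lines (unadjusted p = 0.0203, adjusted p = 0.385 in edgeR's quasi-likelihood test). The adjusted p of the other members lay between 0.523 and 0.864 in edgeR, and DESeq2 called none of the 10.

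Other genes of the pathway were taken from lists written from general knowledge and chosen with earlier results of these data known. The counts of each list beside the shares of all genes are therefore descriptions and no tests. Of the other JAK and STAT genes, none of the 4 tested was called in either line, and with shares of all genes called of 8.82% higher and 11.5% lower in K562 and 8.01% and 10.4% in THP-1, this count is no result about the list. STAT2, a factor of interferon signaling, had 1447 and 1796 counts in K562 and 1291 and 2058 in THP-1, with log2 ratios of 0.29 and 0.90. TYK2, the kinase paired with JAK1 at interferon receptors, had 0.36 and 0.38. STAT4 had at most 27 counts and JAK3 at most 4 in any library.

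Of the genes that carry the signal of BCR-ABL1 and related kinases to STAT5, 1 of 6 tested was called in K562, GAB2, and none of 7 in THP-1, which is near the shares of all genes called, 11.5% lower and 8.82% higher in K562 and 10.4% and 8.01% in THP-1. GAB2, a docking adaptor phosphorylated by BCR-ABL1, fell from 6293 to 1836 counts in K562 (log2 ratio -1.80, -1.88 to -1.73), and its log2 ratio in THP-1 was 0.27. BCR and ABL1 had log2 ratios of 0.12 and 0.02 in K562, where their counts include the fusion transcript, and -0.14 and -0.58 in THP-1. GRB2, which links the fusion to GAB2, had -0.25 and -0.15, and the kinase LYN had -0.31 and 0.90. The myeloid kinase FES had 15 and 31 counts in K562, a log2 ratio of 1.00 (0.09 to 2.02) just under the call, and -0.22 in THP-1.

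Receptors that signal through JAKs moved gene by gene. In K562, 1 of 17 tested was called higher and 4 lower, beside 8.82% and 11.5% of all genes, with a median log2 ratio of -0.40. EPOR, the erythropoietin receptor gene, rose there from 305 to 953 counts (log2 ratio 1.62, 1.43 to 1.81), and IL4R, upstream of STAT6, fell from 259 to 38 (-2.78, -3.33 to -2.30). CSF3R, the receptor gene for granulocyte colony-stimulating factor, fell in K562 from 84 to 12 counts, and THP-1 went the same way from 2315 to 758. IL2RB fell from 32 to 4 counts in K562, and IL10RA went down from 671 to 298 in K562 and up from 385 to 712 in THP-1. In THP-1, 4 of 20 receptors were called higher and 3 lower, beside 8.01% and 10.4% of all genes, with a median of 0.47. CSF2RA, the receptor gene for granulocyte-macrophage colony-stimulating factor, rose from 344 to 802 counts and PRLR fell from 342 to 83. LEPR and IFNGR1 were the other rises beside IL10RA and IL21R the other fall, with log2 ratios of 1.13, 1.28 and -1.36, and these 4 were named after their values were known. Beside the EPOR rise, 8 of the 9 erythroid markers, EPOR among them, were called higher in K562 periplocin and their summed level went from 2173 to 9065 CPM, and the part of this shift in the changes of other K562 genes was not tested. Of the myeloid markers listed for THP-1, 3 of 10 tested were called lower in THP-1 and 0 higher, beside 10.4% and 8.01% of all genes. The summed level of all 11 went from 2449 to 1919 CPM there. In K562, 2 of 5 tested were called lower and 0 higher, beside 11.5% and 8.82%. The part of these shifts in the changes of other genes was not tested either.

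Negative regulators outside the member list included 3 falls and 1 rise among 16 tested in K562, and 0 falls and 1 rise among 15 in THP-1. Over all genes, 11.5% fell and 8.82% rose in K562, and 10.4% fell and 8.01% rose in THP-1. These counts are near those shares and are no result about the list. In K562, SOCS1 fell from 336 to 124 counts (log2 ratio -1.46), the phosphatase gene PTPN6 from 122 to 56 (-1.14) and SH2B3, whose adaptor protein LNK restrains JAK2, from 3783 to 1790 (-1.11), while SOCS5 rose from 376 to 796 (1.06). In THP-1, PTPRC, which encodes the phosphatase CD45, rose from 9051 to 18442 counts (1.26, 1.22 to 1.29). SH2B3 had a log2 ratio of 0.80 there, opposite to K562.

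Of known STAT5 targets other than the members, 6 of 15 tested were called lower and 1 higher in K562, beside 11.5% and 8.82% of all genes, with a median log2 ratio of -0.91. PIM2, a kinase of the same family as PIM1, fell from 8626 to 2333 counts (-1.91, -1.98 to -1.85), while PIM1 was not called. CCND1, which encodes cyclin D1, fell from 1365 to 186 (-2.90), the anti-apoptotic BCL2 from 659 to 128 (-2.39), the phosphatase gene DUSP5 from 83 to 31 (-1.43) and the cell cycle inhibitor gene CDKN1A from 825 to 386 (-1.12). SPRED2, the remaining fall, had a log2 ratio of -1.10, and TFRC, the transferrin receptor gene, was the rise at 1.43, both named after the values were known. In THP-1, 2 of 13 tested were called lower and 3 higher, beside 10.4% and 8.01% of all genes, and the median of 0.42 became 0.17 with a minimum of 5 CPM. There BCL2 fell from 7520 to 1756 counts (-1.87) and MYC from 5889 to 1024 (-2.29), while CDKN1A rose from 500 to 2308 (2.44, 2.30 to 2.58). MCL1 and SPRED1, the latter also named after its values were known, were the other rises, at 1.09 and 1.01. MYC in K562 had a log2 ratio of -0.91, under the limit.

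BCL6, a repressor gene that STAT5 switches off, rose in each line. It had 292 and 4440 counts in K562 (log2 ratio 3.90, 3.73 to 4.08) and 82 and 407 counts in THP-1 (2.53, 2.20 to 2.90).

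Genes that STAT3 induces gave 0 calls among 10 in K562 (median log2 ratio 0.19), beside 8.82% of all genes called higher and 11.5% lower, and 3 rises and 1 fall among 9 in THP-1, beside 8.01% and 10.4% of all genes, with a median of 0.53. In THP-1 the rises were BCL3, from 125 to 300 counts (1.49), FOS, from 819 to 1810 (1.37), and MCL1, from 7573 to 13703 (1.09), and the fall was MYC. Of 9 STAT6 targets, 3 passed the filter in K562, with 2 called lower beside 11.5% of all genes, and 5 in THP-1, with 2 called higher beside 8.01%. IL4R and SOCS1, which were on this list too, fell in K562, and in THP-1 the transglutaminase gene TGM2 rose from 36 to 108 counts (1.80) and IRF4 from 13 to 29 (1.35), both averaging under 5 CPM, and with that minimum neither was tested and the list's median went from 0.47 to 0.12.

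**Figure D4:**
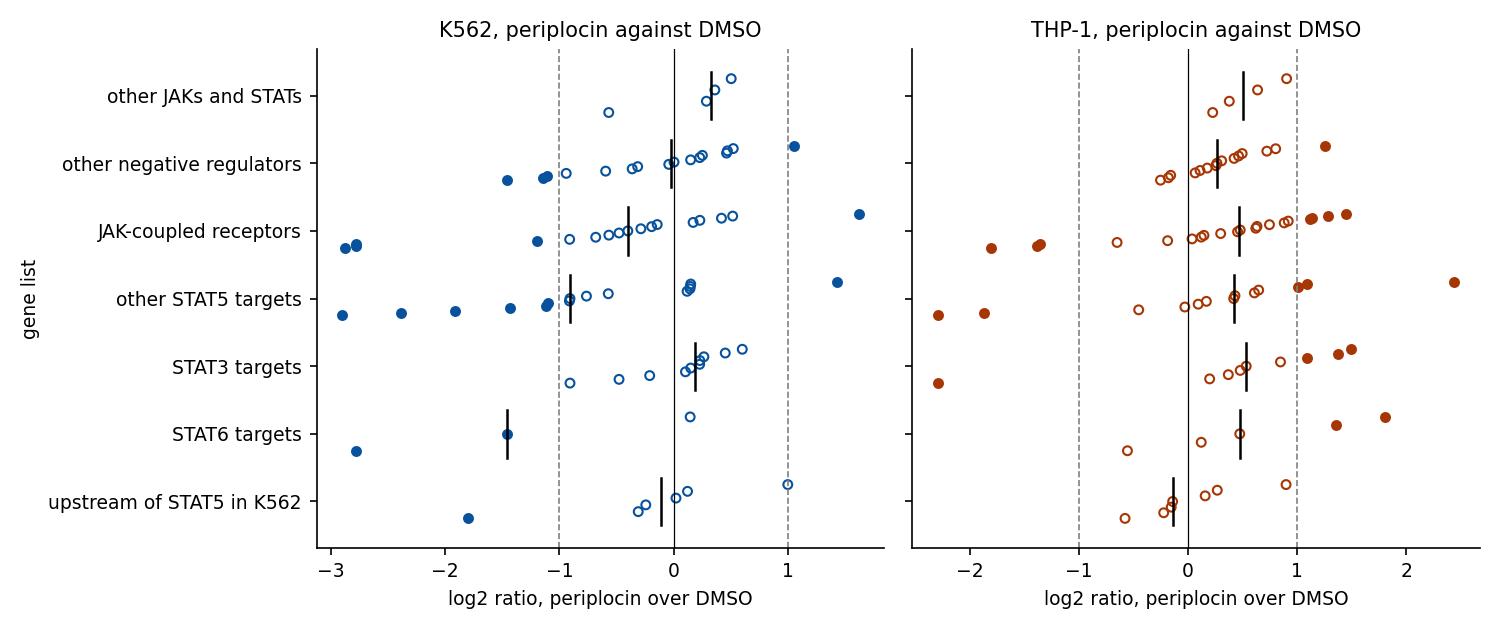
Log2 ratio of periplocin over DMSO for each tested gene of 7 pathway lists, in K562 and in THP-1, with filled points for called genes, open points for the others, a black bar at each list's median and dashed lines at a 2-fold change. The other STAT5 targets have their median at -0.91 in K562 and at 0.42 in THP-1, where it is 0.17 with a minimum of 5 CPM.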

How the data were processed

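The authors deposited 1 table of expected counts per gene and library, not normalized and not pooled, in which between 87.4% and 88.3% of values are exactly whole as written. The submitters' processing notes name HISAT2, StringTie 1.3.1 and hg38, and the program that made the counts and its annotation are not given in the sources used here. Symbols were found for 20310 of 20348 gene identifiers, and lengths for 20118 in GENCODE release 29. Promoter sequences are from RefSeq, GRCh38.p14.

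CPM used the expected counts, and ratios used counts rounded to whole numbers, a prior count of 0.5 and TMM factors from edgeR 4.0.16 in R 4.3.3. With 1 library per condition, no p-value was computed for a pair of libraries. A treatment term was fitted over all 4 libraries by edgeR's quasi-likelihood test, with genes of at least 10 counts in at least 2 libraries, and by DESeq2 1.42.0 as an alternative. Intervals cover counting error only, since 1 library per condition gives no spread between replicates. They also treat reads as independent molecules, which reads are not. The steps were tested on simulated data. For the pairs of libraries, the simulated counts carried counting error only, so spread between replicates was not part of that check. The members and lists were chosen with earlier results of these data known. Named were all members, of each list up to 6 called genes with the largest change and all genes of lists of 7 or fewer. Some genes that this rule names are not reported here. Further alternatives were other scalings, filters, prior counts and assumed dispersions.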

Additional observations from a re-analysis of the deposited data

Results flagged for a closer look

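With 1 library per condition, the opposite direction of a gene in the lines was not tested, and the values below are the THP-1 log2 ratio minus the K562 log2 ratio for members and named list genes whose ratios lay on opposite sides of no change beyond counting error. Among the members these were STAT3 (1.38), STAT6 (1.24), JAK1 (1.52), JAK2 (-1.73), SOCS3 (3.11) and PIM1 (1.33). Among the negative regulators they were PTPN6 (1.32), PTPRC (1.62) and SH2B3 (1.91), and among the receptors LEPR (1.42) and IL10RA (2.31). Among STAT5 targets they were CCND1 (3.51), DUSP5 (2.08), SPRED1 (1.58), SPRED2 (1.53) and CDKN1A (3.56). Among the genes upstream of STAT5 they were BCR (-0.26), GAB2 (2.07), LYN (1.21) and FES (-1.22). IL10RA and CDKN1A were past 2-fold in opposite directions in both lines.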

How the results depend on the processing

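In each comparison, size factors from DESeq2, testing of genes with any count, a larger prior of 2 and a dispersion assumed at 0.04 kept the call of every member, and so did total counts except that they left 0 members called higher in THP-1 DMSO than in K562 DMSO, since STAT6 lies at the limit. No called member reversed its direction. With a minimum of 5 CPM, 632 genes (6.03% of those tested) were called higher and 843 (8.04%) lower in THP-1. There, 0 members were lower because SOCS2 was not tested. For the difference between lines, 778 genes (8.51%) were called higher with that minimum, and 1 member lower, beside 7.87% of genes. With an assumed dispersion of 0.16, 366 genes (3.09%) were called higher and 516 (4.35%) lower in K562, with 0 members higher and 1 lower. In THP-1 these were 403 (3.27%) and 399 (3.23%) genes, with 1 member higher. At that dispersion, 1725 genes (13.4%) and 6 members were called lower in THP-1 DMSO than in K562 DMSO. There, 0 members were called higher, beside 15.8% of genes. For the difference between lines, 234 genes (2.17%) were called higher and 127 (1.18%) lower at 0.16, with 1 member higher and 0 lower. No paired analysis was possible because no condition has replicates to number or leave out, other than the treatment term fitted with the line as a block. The treatment term called 131 genes by DESeq2 and 1 gene when genes with any count were tested, and the cause was not tested.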
